A study of Mus musculus with 53 samples.

Results

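The comparison described here is between 13 mouse synovial sarcomas made with the fusion gene *SS18-SSX1* and *miR-214* (SS214 tumors) and 12 made with *SS18-SSX1* alone (SS tumors). They were chosen by their labels and make up 25 of the 53 arrays of the series. Both groups grew after embryonic mesenchymal cells from the limbs of BALB/c embryos were transduced with a retrovirus and transplanted under the skin of nude mice, which lack T cells but keep other host cells. Both groups therefore carry *SS18-SSX1*, expressed from the same retroviral backbone, pMYs. In SS214 tumors a stretch of mouse genomic DNA holding *miR-214* stands in place of the GFP gene of the vector of SS tumors, so that the groups differ in GFP as well as in *miR-214*. Each array measured total RNA of a whole tumor, so that fewer cells of a type and less RNA per cell cannot be told apart. SS tumors 18, 19 and 23 carried a retroviral integration at *Dnm3*, the gene within which *miR-214* lies.

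SS18-SSX is the fusion protein that defines synovial sarcoma. It enters the SWI/SNF (BAF) chromatin remodelling complex and is held at genes that Polycomb complexes otherwise keep silent, many of them developmental regulators. *miR-214* is made from *Dnm3os*, a long noncoding RNA that runs antisense inside an intron of *Dnm3* and that is expressed in mesenchyme of the embryo. A microRNA pairs with messages mainly through its seed, bases 2 to 8 of the mature strand, and lowers their stability or translation. The mature strands are shown because the DNA added to the vector holds *miR-214*, from which they are cut. The seed is in capitals and the rest in lower case (RefSeq, GRCm38.p6).
mmu-miR-214-3p: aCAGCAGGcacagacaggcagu
mmu-miR-214-5p: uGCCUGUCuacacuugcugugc
The 3p strand lies at chr1:162223438-162223459 and the 5p strand at chr1:162223397-162223418, both on the plus strand. Their hairpin of 110 bases, from 162223368 to 162223477, lies inside *Dnm3os*, which spans 162217623 to 162225550.

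The array does not measure mature *miR-214*, and the only RNA of its locus on it is *Dnm3os*, through a pair of probe sets that gave different answers. Intensities are given on the log2 scale, where a difference of 1 is a 2-fold change, and differences are SS214 minus SS tumors with their standard error (SE) and an adjusted p from limma. *Dnm3os* by the dimmer probe set had a lowest, median and highest log2 intensity of 9.23, 9.64 and 10.22 in SS214 tumors, against 6.86, 7.86 and 10.07 in SS tumors. It rose by 1.47 (SE 0.28, adjusted p = 2.2e-04), and all but 3 SS tumors were at 8.57 or lower. The 3 were SS tumors 18, 20 and 5 at 10.07, 9.91 and 9.26, of which tumor 18 is among those with an integration at *Dnm3*. The others with an integration, SS tumors 19 and 23, were at 8.57 and 7.85. *Dnm3os* by the brighter probe set had 7.27, 9.70 and 10.28 in SS214 tumors and 8.91, 9.71 and 10.59 in SS tumors (difference −0.33, SE 0.24, adjusted p = 0.28). The brighter probe set did not separate the groups. *Dnm3*, the host gene, which encodes a dynamin of endocytosis, had medians of 5.36 in SS214 tumors and 5.70 in SS tumors (−0.35, SE 0.10, adjusted p = 0.0048), and its other probe sets rose by 0.36 (adjusted p = 0.0003) and 0.17 (adjusted p = 0.029). *Twist1*, a basic helix-loop-helix factor of mesenchyme, had medians of 9.51 in SS214 tumors and 9.45 in SS tumors (−0.05, SE 0.12, adjusted p = 0.77).

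**Figure D1:**
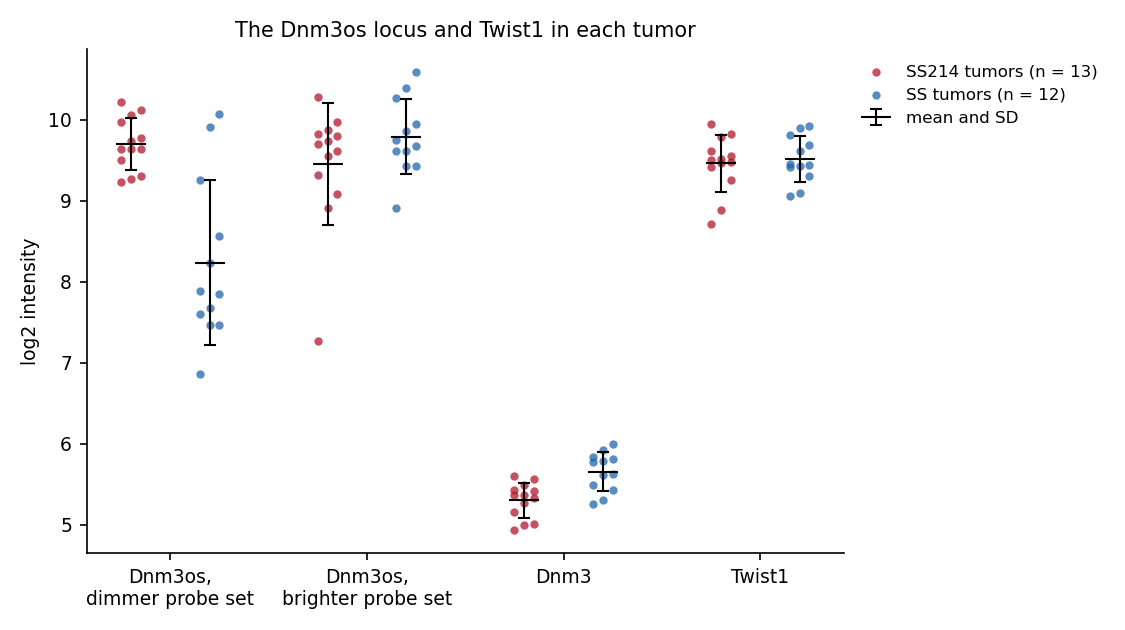
Log2 intensity of the *Dnm3os* probe sets, *Dnm3* and *Twist1* in each tumor (points), with the mean and SD of 13 SS214 tumors (red, left) and 12 SS tumors (blue, right). By the dimmer probe set the SS214 tumors sit between 9.23 and 10.22 and 9 of the 12 SS tumors below them. By the brighter probe set the groups overlap.

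Several features of the arrays moved with the groups and bear on what follows. RNA integrity was read from control genes with probe sets at both ends of the message. For *Gapdh* the signal at the 3′ end over that at the 5′ end, on the log2 scale, had a lowest, median and highest value of −0.04, 0.03 and 0.48 in SS214 tumors and 0.33, 0.88 and 1.43 in SS tumors (mean difference −0.79, two-sided permutation p = 2e-05, the smallest that 100000 resamples can give). Only SS214 tumor 9 lay above the lowest SS tumor. For *Actb* the mean difference was −0.45 (permutation p = 2e-05) and for *Tfrc* −0.07 (permutation p = 0.17). The ratio of another control, pyruvate carboxylase, ran from 1.880 to 4.620 in SS214 tumors and from 1.925 to 4.057 in SS tumors. Its difference was not tested. Of the markers of other cells, 15 of 15 neutrophil and 13 of 23 macrophage genes rose, with mean log2 levels of 4.64 to 9.02 and 6.16 to 8.08 in SS214 tumors, against 4.06 to 6.92 and 5.58 to 8.03 in SS tumors. Of 13 red cell and platelet genes 9 rose and none fell, with levels of 5.80 to 7.64 in SS214 tumors and 5.38 to 6.02 in SS tumors. Of 14 lung epithelial genes 5 rose and 1 fell, and SS214 tumors 13 to 16 had the highest levels. None of 21 skeletal muscle genes and none of 11 lymphocyte genes passed the test. The Y-linked gene *Uty* had a median of 7.14 in SS214 tumors, against 4.85 in SS tumors (+1.75, SE 0.51, adjusted p = 0.0083). *Xist*, of X inactivation, ran from 7.56 to 11.53 in SS214 tumors and from 8.26 to 12.38 in SS tumors, and fell by 1.16. Of 4 X-inactivation and Y-linked genes tested, 2 rose and 1 fell. The part that these features play in the results was not tested.

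Of 15667 genes tested, 3489 rose in SS214 tumors (22.3%) and 2751 fell (17.6%), so that a list of genes is of note only where its share lies away from these. Over 2-fold, 144 rose (0.919%) and 166 fell (1.06%). All SS214 tumors lay above all SS tumors for 110 genes (0.702%) and below them for 84 (0.536%), and the median difference over all genes was 0.04. Once the *Gapdh* ratio entered the fit as a covariate, 379 genes rose and 590 fell. With only the 5 SS tumors whose ratio was lowest, 1616 rose and 1431 fell.

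**Figure D2:**
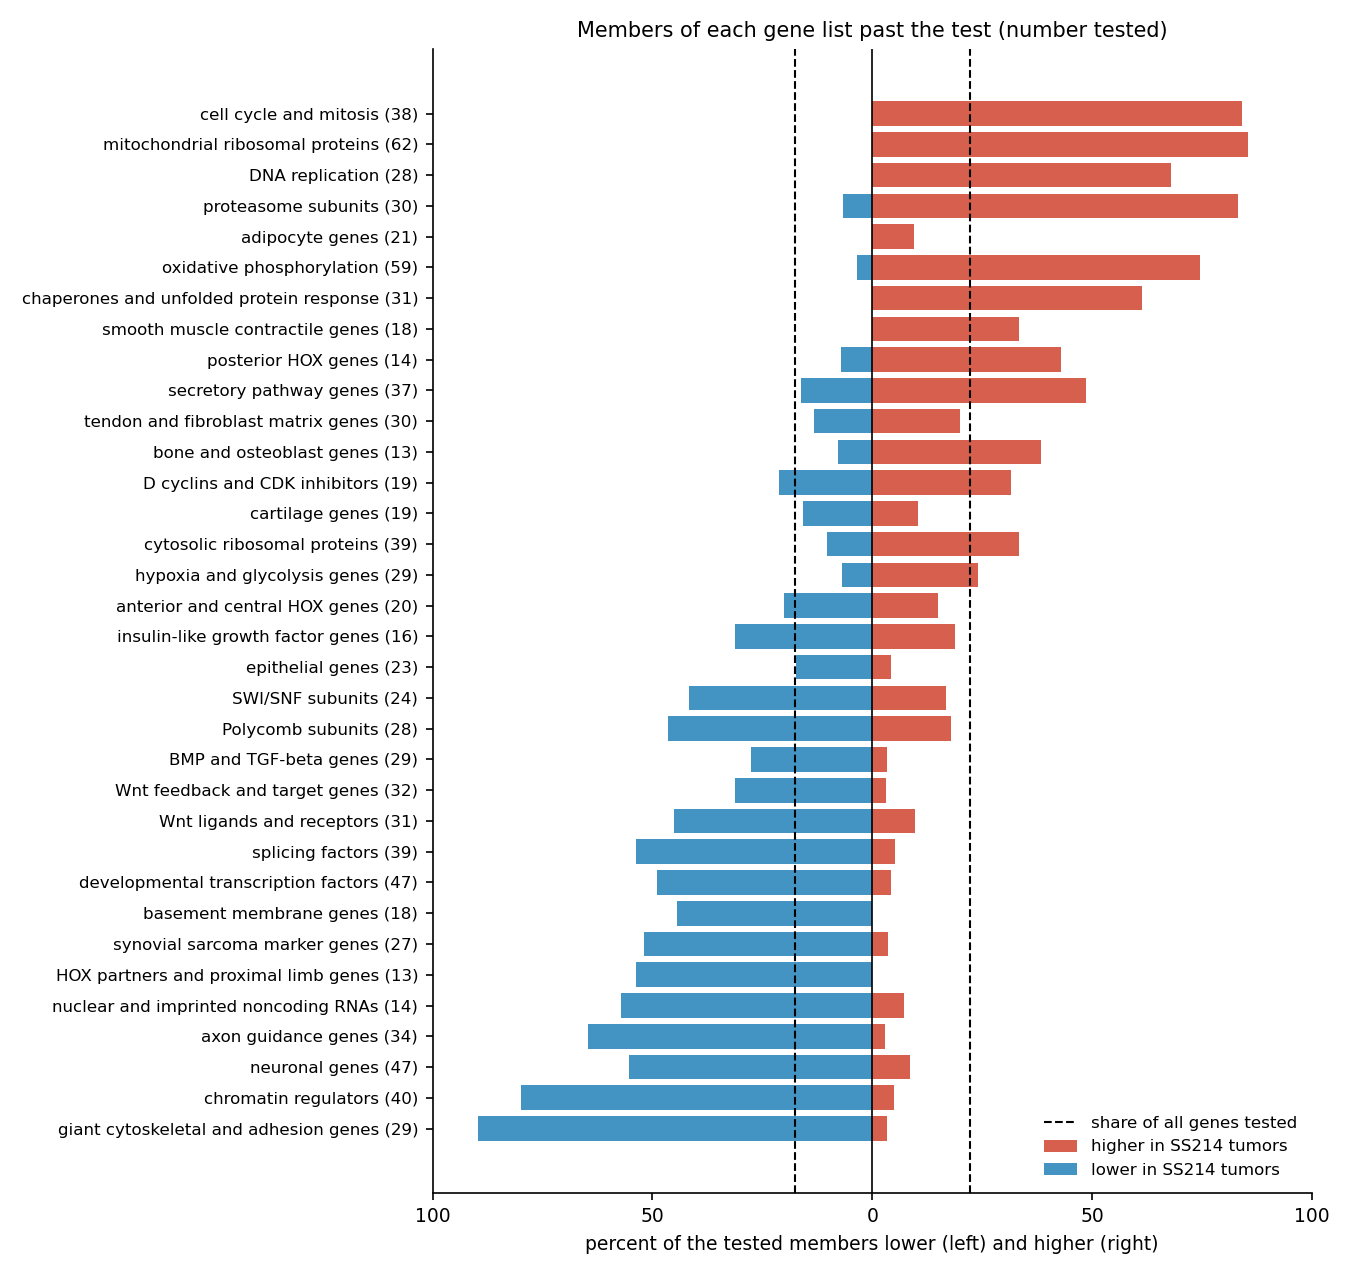
Percent of the tested members of each list of a gene program (marker lists of other cells are not drawn) that fell (blue, left) and rose (red, right) in SS214 tumors relative to SS tumors, with the number tested in brackets. Dashed lines mark the shares over all genes tested, 17.6% and 22.3%. Cell cycle and mitochondrial ribosomal genes reach furthest to the right, and chromatin regulators and giant cytoskeletal and adhesion genes furthest to the left.

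Genes of cell division were higher in SS214 tumors. Of 38 genes of the cell cycle and mitosis, 32 rose and none fell, with a median difference of 0.78. The mean level of the list, relative to all 25 tumors, ran from −0.03 to 0.87 in SS214 tumors and from −1.17 to 0.01 in SS tumors, and 12 of the 13 SS214 tumors lay above every SS tumor. *Ube2c*, the ubiquitin-conjugating enzyme with which the anaphase-promoting complex destroys mitotic cyclins, had 8.10, 8.44 and 9.18 in SS214 tumors, against 6.29, 7.27 and 7.76 in SS tumors (+1.32, SE 0.15, adjusted p = 7.8e-07). *Aurka*, a kinase of the spindle poles, had 6.05, 6.76 and 7.33 in SS214 tumors, against 4.14, 5.54 and 5.96 in SS tumors (+1.33, SE 0.19, adjusted p = 9.9e-06). The groups did not overlap for either gene. *Ccnb2*, a mitotic cyclin, had 7.65, 8.16 and 8.85 in SS214 tumors, against 5.57, 7.11 and 7.47 in SS tumors (+1.17, SE 0.18, adjusted p = 2.3e-05). Its kinase partner *Cdk1*, which drives entry into mitosis, had 8.08, 8.75 and 9.60 in SS214 tumors, against 6.93, 7.78 and 7.98 in SS tumors (+1.12, SE 0.16, adjusted p = 1.3e-05). Again no SS214 tumor was as low as any SS tumor. *Cep55*, which acts in the last cut between daughter cells, also rose without overlap (+1.07, SE 0.13). *Ska1*, which holds kinetochores on microtubules, rose by 1.38 (SE 0.19), and *Ccne2*, a cyclin of the entry into S phase, by 1.35 (SE 0.22).

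Some genes of proliferation did not pass the test. *Mki67*, whose protein coats mitotic chromosomes and is the usual stain for dividing cells, had 5.28, 7.87 and 8.96 in SS214 tumors and 7.54, 7.96 and 8.56 in SS tumors (−0.41, SE 0.30, adjusted p = 0.28). The spread was wider in SS214 tumors, where tumor 3 was lowest. *Foxm1*, a transcription factor of mitotic genes, differed by 0.02 (SE 0.07, adjusted p = 0.81), and *Cenpf*, a large kinetochore protein, by −0.37 (SE 0.20, adjusted p = 0.15).

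**Figure D3:**
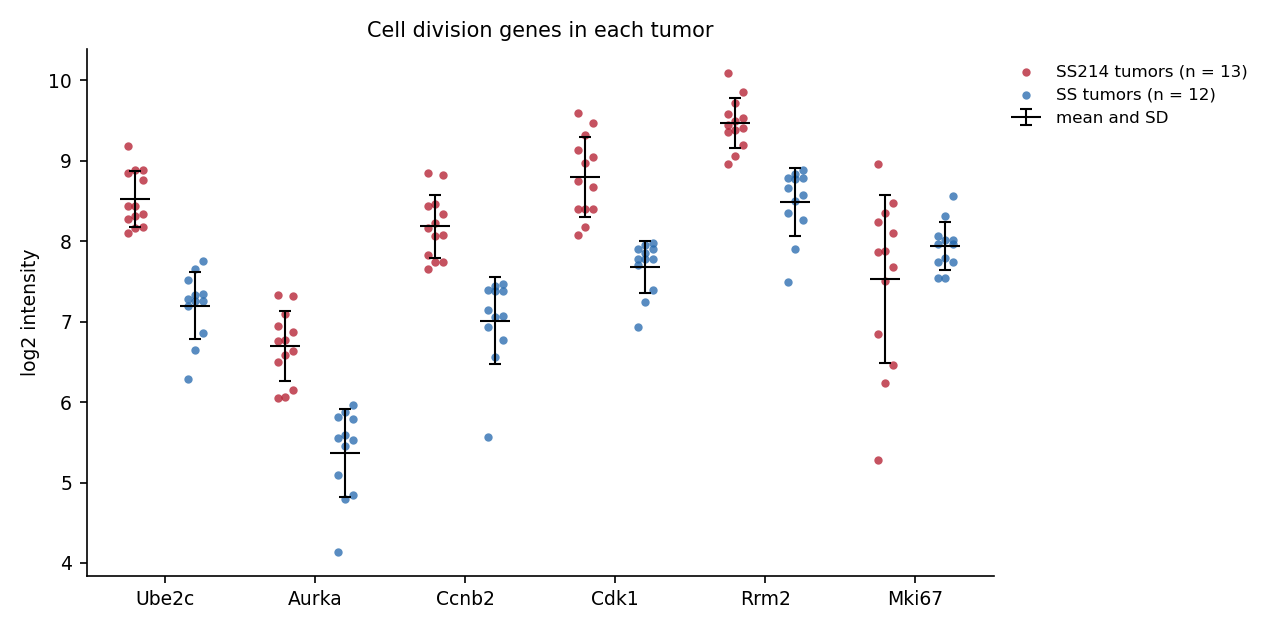
Log2 intensity of 6 cell division genes in each tumor (points), with the mean and SD of 13 SS214 tumors (red, left) and 12 SS tumors (blue, right). For *Ube2c*, *Aurka*, *Ccnb2*, *Cdk1* and *Rrm2* all SS214 tumors lie above all SS tumors, and for *Mki67* the groups overlap.

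DNA replication genes moved the same way, 19 of 28 higher and none lower (median 0.45). *Rrm2*, the regulatory subunit of the enzyme that makes deoxynucleotides, had 8.96, 9.45 and 10.09 in SS214 tumors, against 7.49, 8.62 and 8.88 in SS tumors (+0.98, SE 0.14, adjusted p = 1.2e-05), without overlap. *Rfc4*, a subunit of the loader of the sliding clamp, rose by 1.19 (SE 0.16), also without overlap. Thymidine kinase *Tk1* rose by 1.10 (SE 0.17), and *Gins2*, part of the replicative helicase, by 1.14 (SE 0.18). With the *Gapdh* ratio as a covariate, 13 of the 38 cell cycle and 4 of the 28 replication genes rose and none fell, at medians of 0.74 and 0.60. Against only the 5 SS tumors of lowest ratio, 31 and 11 rose and none fell.

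Many promoters of mitotic genes hold a CHR element (TTTGAA) bound by the DREAM and MuvB complexes, and CCAAT boxes bound by NF-Y. For 4 mitotic genes that rose without overlap, the 250 bases before the start used in the promoter table are shown as examples. Both motifs on either strand are in capitals, the first as TTTGAA or TTCAAA and the second as CCAAT or ATTGG. The bases are from RefSeq (GRCm38.p6), each on its gene's strand.
Ube2c, chr2:164769679-164769928, plus strand: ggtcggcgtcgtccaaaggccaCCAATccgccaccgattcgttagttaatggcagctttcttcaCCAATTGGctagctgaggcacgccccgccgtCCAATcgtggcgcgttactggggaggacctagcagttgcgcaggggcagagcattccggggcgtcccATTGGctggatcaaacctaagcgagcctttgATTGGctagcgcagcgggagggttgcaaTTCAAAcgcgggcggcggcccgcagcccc
Aurka, chr2:172370571-172370820, minus strand: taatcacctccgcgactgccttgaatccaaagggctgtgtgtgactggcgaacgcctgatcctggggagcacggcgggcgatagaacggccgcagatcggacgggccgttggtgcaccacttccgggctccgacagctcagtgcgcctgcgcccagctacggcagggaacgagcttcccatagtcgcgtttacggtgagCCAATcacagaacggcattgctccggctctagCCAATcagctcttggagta
Ccnb2, chr9:70421555-70421804, minus strand: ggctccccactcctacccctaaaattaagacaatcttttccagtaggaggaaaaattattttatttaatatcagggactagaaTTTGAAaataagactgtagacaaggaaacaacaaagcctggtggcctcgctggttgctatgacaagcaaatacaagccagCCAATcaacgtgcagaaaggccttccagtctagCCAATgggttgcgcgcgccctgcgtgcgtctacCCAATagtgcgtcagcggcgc
Cdk1, chr10:69352913-69353162, minus strand: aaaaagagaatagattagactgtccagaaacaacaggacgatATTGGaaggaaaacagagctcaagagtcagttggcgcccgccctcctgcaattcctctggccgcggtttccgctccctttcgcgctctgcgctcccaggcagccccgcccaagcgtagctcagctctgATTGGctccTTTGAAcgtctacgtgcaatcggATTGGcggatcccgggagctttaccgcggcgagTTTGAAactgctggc
A promoter was found for 25 of the 32 cell cycle genes that rose. TTTGAA or its complement was in 10 of them (40%) and CCAAT or its complement in 18 (72%), against 18.3% and 37.5% of the 27025 genes with a promoter of this length, and 13.4% and 39.4% of the 12501 tested here. These are counts of letters in the windows. The 25 genes were listed as cell cycle genes, among which such motifs are common, so the shares do not bear on why they rose. Listed genes that did not rise were not counted. The *Aurka* window lies inside the full span of the gene, which ends at 172370886, since RefSeq also lists a start farther upstream.

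Genes of mitochondrial and protein turnover machinery also rose. Of 62 proteins of the mitochondrial ribosome, which makes the core subunits of the respiratory chain, 53 rose and none fell (median 0.53). *Mrpl15*, of its large subunit, had 8.75, 9.36 and 9.72 in SS214 tumors, against 7.62, 8.08 and 8.83 in SS tumors (+1.08, SE 0.14, adjusted p = 2.7e-06). Another subunit, *Mrpl21*, rose by 0.79 (SE 0.12) without overlap. Of 59 oxidative phosphorylation genes 44 rose and 2 fell (median 0.29). *Ndufs4*, an accessory subunit of complex I, had 9.52, 10.14 and 10.53 in SS214 tumors, against 8.95, 9.06 and 9.49 in SS tumors (+0.85, SE 0.11, adjusted p = 5.2e-06). *Sdhd*, a membrane anchor of complex II, rose by 0.73 (SE 0.13). Of 30 proteasome subunits 25 rose and 2 fell (median 0.40), and the level of the list was above every SS tumor in all 13 SS214 tumors. *Psma1* and *Psma6*, of the ring of the core particle, rose by 0.60 (SE 0.07) and 0.66 (SE 0.08). *Hspe1*, the chaperonin partner in mitochondria, rose by 0.74 (SE 0.08), and 19 of 31 chaperone genes rose with none lower (median 0.23). The cytosolic ribosome differed from these, with 13 of 39 proteins higher and 4 lower (median 0.04), and 5 higher and 8 lower after quantile normalization.

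Among these lists 9 mitochondrial ribosomal, 6 oxidative phosphorylation and 10 proteasome genes rose and none fell when the *Gapdh* ratio was a covariate, and 17 oxidative phosphorylation genes rose with the *Actb* ratio. Against only the 5 SS tumors of lowest ratio, the counts were 31, 24 and 20. Among single genes outside these lists, *Vamp3*, a SNARE of recycling endosomes, had 5.63, 6.26 and 6.77 in SS214 tumors, against 4.33, 4.79 and 5.63 in SS tumors (+1.35, SE 0.15, adjusted p = 5.7e-07). It rose by 1.26 (adjusted p = 0.011) with the ratio as a covariate.

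HOX genes give cells their position along the body and the limb. The groups from 9 to 13 pattern the limb, and the end of the series, group 13, marks the hand and foot. Of 14 posterior HOX genes (groups 9 to 13) 6 rose and 1 fell (median 0.19), and of 20 anterior and central genes 3 rose and 4 fell (median −0.06). *Hoxd13* (chr2:74668225-74671603) had 8.60, 9.59 and 10.36 in SS214 tumors, against 6.91, 8.44 and 10.00 in SS tumors (+1.23, SE 0.27, adjusted p = 0.00091), and its other probe set rose by 0.78 (adjusted p = 1.4e-05). Its neighbour *Hoxd12* had 4.72, 5.78 and 6.37 in SS214 tumors, against 3.55, 4.08 and 5.36 in SS tumors (+1.42, SE 0.21, adjusted p = 1.3e-05), and 9 of the 13 SS214 tumors lay above every SS tumor. *Hoxa13* had 4.40, 5.23 and 5.67 in SS214 tumors, against 3.83, 4.07 and 4.81 in SS tumors (+1.02, SE 0.14, adjusted p = 7.7e-06), with 11 of the 13 above. These 3 are genes of the most distal limb. *Hoxd10* had 7.33, 7.99 and 8.78 in SS214 tumors, against 5.49, 7.04 and 9.17 in SS tumors (+0.84, SE 0.29, adjusted p = 0.024). *Hoxa10* rose by 0.61 (SE 0.17) and *Hoxa9* by 0.33 (SE 0.12). *Hoxc13* fell by 0.47 (SE 0.16). The other 7 did not pass the test. They include *Hoxc10* with medians of 9.35 in SS214 tumors and 9.45 in SS tumors (−0.15, SE 0.18), and *Hoxa11* with medians of 7.07 in SS214 tumors and 7.04 in SS tumors (+0.12, SE 0.19). Toward the other end of the HOXD cluster *Hoxd8* rose by 0.86 (SE 0.27) and *Hoxd1* by 1.13 (SE 0.30), and *Hoxc4* fell by 0.88 (SE 0.13).

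Of 13 genes of HOX cofactors and the proximal limb 7 fell and none rose (median −0.41). *Meis1*, a homeodomain partner of HOX proteins that marks the upper limb, had 6.98, 8.08 and 8.78 in SS214 tumors, against 7.98, 8.74 and 9.12 in SS tumors (−0.73, SE 0.17, adjusted p = 0.0015). *Meis2* fell by 0.52 (SE 0.17) and *Pbx3*, another cofactor, by 0.53 (SE 0.12). *Tbx3*, a T-box factor of limb and mammary development, had 8.12, 9.10 and 10.28 in SS214 tumors, against 8.73, 10.00 and 10.95 in SS tumors (−0.98, SE 0.27, adjusted p = 0.0051). *Tbx2*, its close relative, fell by 0.92 (SE 0.30). The groups overlapped for each of these genes. Of the 13 genes, 2 fell with the *Gapdh* or the *Actb* ratio as a covariate, 3 with the level of the lung or of the macrophage list, and 4 with *Uty* or against only the 5 SS tumors of lowest ratio. *Tbx3* differed by −0.61 (adjusted p = 0.085) with the lung list as a covariate, −0.60 (adjusted p = 0.073) with the macrophage list and −0.70 (adjusted p = 0.091) with *Uty*.

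**Figure D4:**
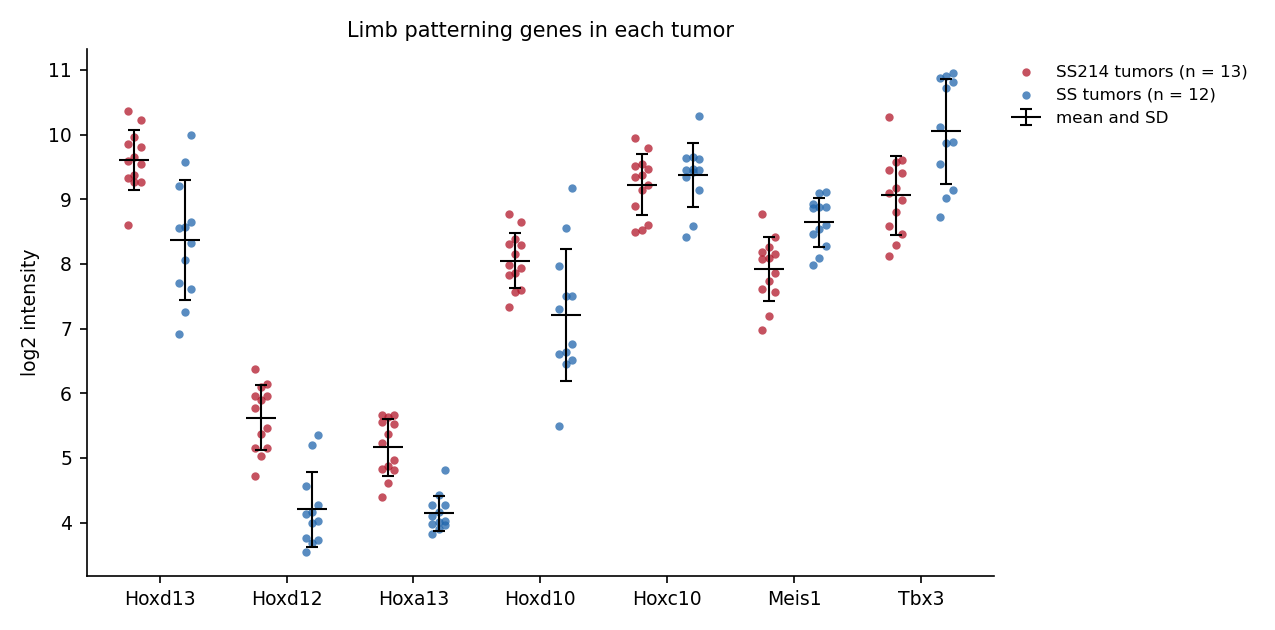
Log2 intensity of 7 limb patterning genes in each tumor (points), with the mean and SD of 13 SS214 tumors (red, left) and 12 SS tumors (blue, right). *Hoxd13*, *Hoxd12*, *Hoxa13* and *Hoxd10* are higher in SS214 tumors, *Meis1* and *Tbx3* lower, and *Hoxc10* overlaps, with medians of 9.35 and 9.45.

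Among SS tumors *Hoxd13* tended to be high where the Y-linked *Uty* was high. SS tumor 5 had the highest *Hoxd13* among SS tumors, 10.00, and the highest *Uty*, 8.30, and tumor 27 the lowest of each, 6.91 and 3.55. SS214 tumors did not follow this order. SS214 tumor 3 had the highest *Uty*, 8.88, with *Hoxd13* at 9.81, and tumor 6 the lowest, 4.98, with *Hoxd13* at 9.55. SS214 tumor 2 had the lowest *Hoxd13*, 8.60, with *Uty* at 7.89. The relation within each group was not tested. With *Uty* as a covariate 2 posterior HOX genes rose. *Hoxd12* and *Hoxa13* rose by 0.99 (adjusted p = 0.00088) and 0.94 (adjusted p = 0.00034), while *Hoxd13* differed by 0.59 (adjusted p = 0.067) and *Hoxd10* by 0.03 (adjusted p = 0.93). With the *Gapdh* ratio as a covariate 4 posterior genes rose, at a median of 0.68, among them *Hoxd13* by 2.25 (adjusted p = 0.0075).

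Wnt proteins steer growth and patterning through β-catenin, which switches on feedback genes that limit the signal. Of 32 Wnt feedback and target genes 10 fell and 1 rose (median −0.20), and of 31 ligands and receptors 14 fell and 3 rose (median −0.22). *Axin2*, the classic feedback inhibitor and reporter of the pathway, had 6.80, 7.44 and 7.73 in SS214 tumors, against 7.70, 8.52 and 8.87 in SS tumors (−1.09, SE 0.14, adjusted p = 3.3e-06). The groups met at their edges, with 10 SS214 tumors below every SS tumor. *Rspo1*, a secreted amplifier of Wnt signals, fell by 1.00 (SE 0.20), its receptor *Lgr5* by 0.72 (SE 0.19), and *Znrf3*, the ligase that clears Wnt receptors, by 0.78 (SE 0.18). *Ccnd1*, a D cyclin that Wnt signals can induce, had a median of 11.30 and a highest of 11.64 in SS214 tumors, against 11.68 and 11.89 in SS tumors (−0.38, SE 0.07, adjusted p = 0.00025). Cyclin D1 acts before S phase, and its gene went the other way from the mitotic genes above. *Wnt5a*, a ligand of limb outgrowth that acts largely without β-catenin, had 8.27, 8.85 and 9.52 in SS214 tumors, against 9.13, 9.75 and 10.71 in SS tumors (−0.92, SE 0.15, adjusted p = 3.9e-05). *Fzd7*, a Wnt receptor, fell by 0.70 (SE 0.13), and *Gsk3b*, the kinase that marks β-catenin for destruction, by 0.96 (SE 0.15). *Axin2* fell by 1.40 (adjusted p = 0.0039) with the *Gapdh* ratio as a covariate, where 8 feedback genes and 5 ligands and receptors fell.

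Probe sets of *Mycn* and *Bmp7* gave unlike answers. *Mycn*, a transcription factor of the MYC family in the Wnt target list, had a lowest, median and highest level of 10.34, 11.07 and 11.61 in SS214 tumors, all below every SS tumor, against a median of 12.29 and a highest of 12.66 in SS tumors by its brightest probe set (−1.29, SE 0.12, adjusted p = 8.7e-08). By its other probe sets the difference was −0.35 (adjusted p = 0.31) and −0.13 (adjusted p = 0.29). The bright probe set also read 5.43 ± 0.16 in embryonic mesenchymal cells expressing *SS18-SSX1* and 12.60 ± 0.03 in those with the empty vector (SD, n = 4 each). Whether it reads *Mycn* alone is not known from these files. *Bmp7*, a bone morphogenetic protein of limb and kidney, had 7.36, 7.65 and 8.13 in SS214 tumors, against 8.61, 8.90 and 9.12 in SS tumors by its brightest probe set (−1.19, SE 0.09, adjusted p = 8.8e-09). A probe set of *Bmp7* of similar brightness fell by 0.47 (adjusted p = 0.0014), and the dimmest rose by 0.66 (adjusted p = 0.011).

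Of 47 developmental transcription factors 23 fell and 2 rose (median −0.26). *Pax7*, which marks muscle stem cells and the dorsal neural tube, had 4.80, 5.41 and 6.56 in SS214 tumors, against 5.98, 7.00 and 7.69 in SS tumors (−1.43, SE 0.21, adjusted p = 1.1e-05). *Trps1*, a GATA-type repressor of skeletal development, had 6.15, 7.28 and 8.51 in SS214 tumors, against 8.15, 9.07 and 9.61 in SS tumors (−1.48, SE 0.24, adjusted p = 3.4e-05). The zinc finger homeodomain factor *Zfhx4* fell by 1.52 (SE 0.25), and *Prox1*, a factor of lymphatic and neural fate, by 1.32 (SE 0.29). Of the 47, 12 fell and none rose with the *Gapdh* ratio as a covariate.

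Synovial sarcomas can express neuronal genes. Of 47 such genes 26 fell and 4 rose in SS214 tumors (median −0.57). *Kif5a*, the kinesin heavy chain of neurons, had 6.12, 6.76 and 7.28 in SS214 tumors, against 7.81, 8.15 and 8.87 in SS tumors (−1.46, SE 0.14, adjusted p = 1.3e-07). A dimmer probe set of *Kif5a* gave +0.03. *Nrxn2*, a presynaptic adhesion receptor, had 4.61, 4.97 and 5.40 in SS214 tumors, against 5.59, 6.13 and 6.64 in SS tumors (−1.18, SE 0.11, adjusted p = 1e-07). *Islr2*, a membrane protein of axon growth, had 7.42, 8.59 and 9.22 in SS214 tumors, against 9.24, 9.81 and 10.93 in SS tumors (−1.40, SE 0.21, adjusted p = 2e-05). For these genes every SS214 tumor lay below every SS tumor. *Slc12a5*, the chloride exporter of mature neurons, had 6.62, 7.30 and 8.15 in SS214 tumors, against 7.70, 8.59 and 9.47 in SS tumors (−1.37, SE 0.20, adjusted p = 1.4e-05). *Slc32a1*, which loads GABA and glycine into vesicles, fell by 1.38 (SE 0.34). *Stmn2*, a regulator of microtubules in growing axons, went the other way and rose by 0.58 (SE 0.17). Of 34 axon guidance genes 22 fell and 1 rose (median −0.56). They include the netrin receptor *Unc5c* (−1.19, SE 0.18), the plexin *Plxna2* (−1.01, SE 0.15), the Slit receptor *Robo1* (−0.85, SE 0.17) and the semaphorin *Sema5a* (−1.17, SE 0.20). With the *Gapdh* ratio as a covariate 16 neuronal genes (median −0.69) and 10 axon guidance genes fell and none rose. *Slc12a5* then fell by 2.31 (adjusted p = 0.00052), while *Islr2* differed by −0.61 (adjusted p = 0.29).

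Chromatin regulators fell, 32 of 40 with 2 higher (median −0.61). The level of the list ran from −1.06 to 0.24 in SS214 tumors and from 0.12 to 0.45 in SS tumors. It was lowest in SS214 tumors 3, 4, 5, 8, 9 and 16, at −0.47 or lower. In SS214 tumors 2 and 14 it was highest, at 0.14 and 0.24, and the other 11 lay below every SS tumor. *Crebbp*, a histone acetyltransferase and coactivator, had 5.11, 8.06 and 9.12 in SS214 tumors, against 8.42, 9.63 and 9.97 in SS tumors (−1.89, SE 0.36, adjusted p = 0.00025). *Kat6a*, another acetyltransferase, had 5.13, 6.54 and 7.30 in SS214 tumors, against 7.48, 7.86 and 8.19 in SS tumors (−1.23, SE 0.18, adjusted p = 1.8e-05), without overlap. *Kmt2d*, a histone methyltransferase of enhancers, fell by 1.23 (SE 0.20). The complexes that SS18-SSX works with had medians nearer 0. Of 24 SWI/SNF subunits 10 fell and 4 rose (median −0.13), and of 28 Polycomb genes 13 fell and 5 rose (median −0.14). *Ezh2*, the histone methyltransferase of Polycomb, had 7.83, 8.22 and 8.61 in SS214 tumors, against 7.01, 7.62 and 8.21 in SS tumors and rose by 0.55 (SE 0.11, adjusted p = 0.00032), while *Ezh1*, its relative in resting cells, fell by 0.52 (SE 0.09).

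The length of a gene went with the direction of its change over the whole array. With genes ordered by the genomic span from start to end and split into 5 parts of equal number, 30% of the shortest rose and 6.17% fell, and 10.1% of the longest rose and 33.2% fell. The median difference was 0.11 among the shortest and −0.11 among the longest. A list of giant cytoskeletal and adhesion genes, with very long messages, fell in 26 of 29 with 1 higher (median −1.01). *Macf1*, which links microtubules to actin, had 6.64, 7.86 and 9.05 in SS214 tumors, against 8.99, 9.29 and 9.64 in SS tumors (−1.38, SE 0.23, adjusted p = 5e-05). *Fat1*, a giant cadherin, fell by 1.36 (SE 0.27). The level of the giant list lay between −1.72 (tumor 3) and 0.32 (tumor 14) in SS214 tumors, with tumors 3, 4, 5, 8 and 9 lowest, against 0.31 to 0.70 in SS tumors. Of 14 nuclear and imprinted noncoding RNAs 8 fell and 1 rose (median −0.52), among them *Kcnq1ot1* (−1.41, SE 0.18), an antisense RNA that silences an imprinted domain, and *Malat1* (−0.91, SE 0.23), an abundant nuclear RNA. Of 39 splicing factors 21 fell and 2 rose (median −0.23). When the *Gapdh* ratio was a covariate 9 chromatin regulators and 10 giant genes fell, at medians of −0.61 and −1.13. Against only the 5 SS tumors of lowest ratio 22 and 15 fell.

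**Figure D5:**
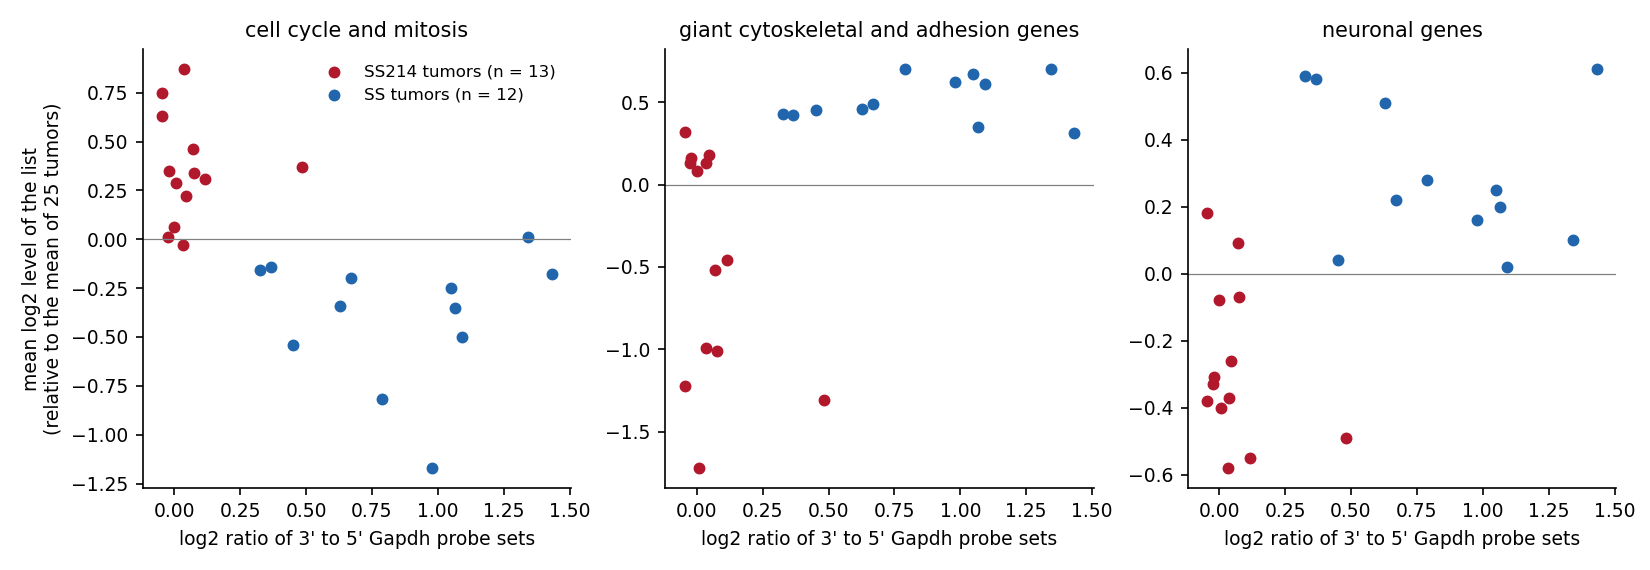
Mean log2 level of the cell cycle, giant and neuronal lists (relative to the mean of 25 tumors) against the log2 ratio of 3′ to 5′ *Gapdh* probe sets in each tumor (red, 13 SS214 tumors; blue, 12 SS tumors). The groups lie apart on the ratio, with all but 1 SS214 tumor below the lowest SS tumor at 0.33. The giant list varies most among SS214 tumors whose ratios are near 0.

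Some genes of bone, smooth muscle and tendon rose in some SS214 tumors and not in others. Fewer genes rose in the cartilage and adipocyte lists, 2 of 19 (10.5%) and 2 of 21 (9.52%), against 22.3% of all genes tested. Of the cartilage genes 3 fell (15.8%), and no adipocyte gene fell. *Mmp13*, a collagenase of bone and growth plate, had 3.70, 8.23 and 10.41 in SS214 tumors, against 3.55, 3.97 and 6.51 in SS tumors (+2.87, SE 0.63, adjusted p = 0.00087), with 9 of the 13 SS214 tumors above every SS tumor. Of 13 bone and osteoblast genes 5 rose and 1 fell (median 0.11). *Bglap*, encoding osteocalcin, had 4.75, 6.76 and 9.03 in SS214 tumors, against 4.38, 4.66 and 5.70 in SS tumors (+1.74, SE 0.40, adjusted p = 0.0012), and *Ibsp*, bone sialoprotein, rose by 1.19 (SE 0.36). Of 18 smooth muscle contractile genes 6 rose and none fell (median 0.19). *Cnn1*, a calponin of smooth muscle, had 4.34, 6.91 and 10.32 in SS214 tumors, against 4.18, 5.12 and 7.56 in SS tumors (+1.92, SE 0.54, adjusted p = 0.0059). Of 30 tendon and fibroblast matrix genes 6 rose and 4 fell (median 0.15), shares near those of all genes. *Tnmd*, a marker of tendon, rose by 1.35 (SE 0.30), and *Mfap5*, of elastic microfibrils, by 1.43 (SE 0.34). The main fibrillar collagens did not pass the test, with *Col1a1* at −0.68 (SE 0.30, adjusted p = 0.077) and *Col3a1* at −0.35 (SE 0.18, adjusted p = 0.13). When the *Gapdh* ratio was a covariate no bone, smooth muscle or tendon gene of these lists passed, and *Mmp13* differed by 3.30 (adjusted p = 0.082). With only the SS tumors of lowest ratio *Mmp13* rose by 2.83 (adjusted p = 0.036) and *Cnn1* differed by 1.62 (adjusted p = 0.16). The level of the smooth muscle list was highest in SS214 tumors 13 to 16 and lay between 0.71 and 1.42 there, against −0.92 to 0.41 in SS tumors, and these 4 also had the highest lung levels. With the lung list as a covariate 1 smooth muscle, 2 bone and 2 tendon and fibroblast genes rose. With the macrophage list 2 of each of these kinds rose, and with the *Actb* ratio 1 smooth muscle gene and no bone, tendon or fibroblast gene. In each of these fits 7 tendon and fibroblast genes fell, with list medians of −0.18, −0.28 and −0.47, and 1 bone gene fell. Of the smooth muscle genes 1 fell with the lung list, 2 with the macrophage list and none with the *Actb* ratio. Without SS214 tumors 13 to 16, 2 smooth muscle genes rose.

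Of 27 genes that mark synovial sarcoma 14 fell and 1 rose (median −0.39), while 5 fell with the *Gapdh* ratio as a covariate and 8 against only the SS tumors of lowest ratio. *Igf1r*, the growth factor receptor on which these sarcomas can depend, had 5.54, 6.96 and 7.98 in SS214 tumors, against 7.70, 8.24 and 8.60 in SS tumors (−1.29, SE 0.25, adjusted p = 0.00031). *Tle3*, a corepressor, had 7.57, 8.86 and 9.57 in SS214 tumors, against 9.59, 9.87 and 10.16 in SS tumors (−1.08, SE 0.17, adjusted p = 3.5e-05), without overlap. Its relative *Tle1*, used to diagnose synovial sarcoma, fell by 0.39 (SE 0.10, adjusted p = 0.0036), and the antiapoptotic *Bcl2* by 0.60 (SE 0.20, adjusted p = 0.018). *Sox2*, a target of the fusion, had 9.42, 9.89 and 10.50 in SS214 tumors and 8.73, 9.75 and 10.55 in SS tumors (+0.21, SE 0.16, adjusted p = 0.32). All 25 tumors expressed it well above the floor of 3.55.

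The candidate targets of *miR-214* were chosen in the study from target prediction and from cell lines given *miR-214*, not from these tumors. Of 10 measured, 5 fell and 1 rose (median −0.27). The level of the list was lowest in SS214 tumors 3, 4, 5, 8 and 9, at −0.67 to −0.26, against 0.02 to 0.25 in SS tumors. *Cbl*, a ubiquitin ligase that ends receptor signals, had 6.39, 8.10 and 8.83 in SS214 tumors, against 8.51, 8.87 and 9.14 in SS tumors (−0.98, SE 0.21, adjusted p = 0.00064). Of the other *Cbl* probe sets, 1 fell by 1.23 (adjusted p = 0.0014) and 1 differed by 0.05. Beside *Ezh1*, given above, *Plagl2*, a zinc finger factor, fell by 0.46 (SE 0.11), *Foxo4*, a forkhead factor, by 0.41 (SE 0.16) and *Nomo1*, a membrane protein of the endoplasmic reticulum, by 0.23 (SE 0.09). *Fbxo3*, a substrate receptor of ubiquitin ligases, rose by 0.43 (SE 0.10). *Timp2*, an inhibitor of metalloproteinases, differed by −0.32 (SE 0.17, adjusted p = 0.13), and *Tpp1*, *Chfr* and *Lats2* differed by −0.01, −0.04 and −0.01, with adjusted p from 0.64 to 0.99. *Cbl* alone of the 10 was lower with the *Gapdh* ratio as a covariate (−1.25, adjusted p = 0.048) and with only the SS tumors of lowest ratio (−0.99, adjusted p = 0.032), and without SS214 tumor 3 the count of candidates that fell was 3.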

How the data were processed

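Total RNA of each tumor was hybridised to 1 GeneChip mouse HT MG-430 PM array. The table that the authors deposited holds a linear intensity for 45141 probe sets on 53 arrays, on a common scale. MAS5 appears in the submitters' processing notes (version not given in the sources used here) and GeneSpring in the methods, but the values do not settle how probes were summarized. Groups came from the titles. Gene names came from GEO's platform annotation (28898 with 1 symbol, 551 with several, 15588 with none, 104 controls left out).

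Intensities under 11.7, the median over arrays of the 20th percentile, were raised to it (log2 value 3.55). The probe sets exceeding it on at least 4 of the 25 arrays entered a fit by limma 3.58.1 (R 4.3.3; lmFit and eBayes with a trend), with Benjamini-Hochberg adjustment over all that were tested, each gene was read from its brightest probe set, and "rose" and "fell" mean an adjusted p under 0.05. The precision rests on the number of arrays, 13 and 12, each counted as a separate tumor by its title. SS tumors 24 and 29 gave nearly the same values, such as −1.29 each for the macrophage list and 0.59 and 0.58 for the neuronal list. Whether they are independent tumors was not tested. Both are among the 5 SS tumors of lowest *Gapdh* ratio, so the precision of SS tumors could be overstated there most. Control ratios were compared by permutation (100000 resamples). The fit was tested on simulated data.

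The genes named were drawn from the 15 largest rises and 15 largest falls outside lists of lung, blood and chemokine genes, up to 6 members of each list with the largest change, every candidate target, posterior HOX and *Dnm3* locus gene, and the brightest markers. Not all of them are printed. Other genes (*Mki67*, *Foxm1*, *Cenpf*, *Cdk1*, *Cep55*, *Ezh2*, *Ccnd1*, *Nrxn2*, *Stmn2*, *Col1a1*, *Col3a1*, *Sox2*, *Tle1* and *Bcl2*) were chosen after their values were seen. The comparison, its members and the 48 gene lists were chosen with earlier results of these data known. Alternatives were another normalization, floor, filter, probe set rule and test, all arrays in the fit, covariates and tumors left out. The *Actb* ratio, macrophage level or *Uty* as a covariate, the 5 SS tumors of lowest *Gapdh* ratio, and the fit without SS214 tumor 3 were chosen after seeing the data.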

Additional observations from a re-analysis of the deposited data

How the results depend on the processing

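No paired analysis was possible because tumor numbers name separate tumors and the groups share only number 5. In the main fit 3489 genes rose and 2751 fell. Over all genes tested, 379 rose and 590 fell with the *Gapdh* ratio as a covariate. With only the 5 SS tumors of lowest ratio 1616 rose and 1431 fell, and with the *Actb* ratio as a covariate 1777 fell. The genes called in the main fit and again in the same direction numbered 927 with the *Gapdh* ratio, 2694 with the SS tumors of lowest ratio and 3436 with the *Actb* ratio. The 144 rises over 2-fold became 240 without SS tumors 18, 19 and 23, 284 with the *Actb* ratio and 230 with the SS tumors of lowest ratio. The 166 falls over 2-fold became 97 with the mean over probe sets, 270 with the lung genes as a covariate, 292 without SS214 tumors 13 to 16, 603 with the *Actb* ratio and 312 with the macrophage level. With the *Gapdh* ratio the counts of genes that moved in the direction given in the report were 13 of 38 for the cell cycle, 4 for DNA replication, 9 for mitochondrial ribosomal proteins, 6 for oxidative phosphorylation, 10 for the proteasome, 2 for chaperones, 1 for the cytosolic ribosome, 12 for developmental factors, 5 for Wnt ligands and receptors, 16 for neuronal, 10 for axon guidance and 10 for giant genes, 9 for chromatin regulators, 4 for Polycomb, 5 for splicing, 2 for noncoding RNAs, 2 for HOX partners, 5 for synovial sarcoma markers, 1 for candidate targets and 0 for SWI/SNF, anterior and central HOX (lower), smooth muscle, bone and tendon genes. With the SS tumors of lowest ratio they were 31 for mitochondrial ribosomal proteins, 24 for oxidative phosphorylation, 11 for replication, 7 for chaperones, 3 for the cytosolic ribosome, 15 for giant genes, 13 for splicing, 7 for Polycomb, 6 for SWI/SNF, 8 for sarcoma markers, 4 for HOX partners, 3 for posterior HOX and 1 for anterior and central HOX genes, 3 for tendon, 2 for smooth muscle, 1 for bone and 1 for candidate targets. With the *Actb* ratio they were 17 for oxidative phosphorylation, 9 for Wnt ligands and receptors, 17 for neuronal genes, 12 for splicing, 9 for sarcoma markers, 5 for SWI/SNF, 2 for HOX partners, 1 for smooth muscle and 0 for bone, tendon and anterior and central HOX genes. With *Uty* they were 2 for posterior HOX, 8 for anterior and central HOX, 4 for HOX partners, 9 for Wnt ligands and receptors, 8 for sarcoma markers, 5 for noncoding RNAs, 5 for the cytosolic ribosome and 3 for candidate targets. The lung list as a covariate gave 3 HOX partners, 2 anterior and central HOX genes, 1 smooth muscle, 2 bone and 2 tendon genes, and the macrophage list 3 HOX partners and 2 each of smooth muscle, bone and tendon genes. Smooth muscle genes were 2 without SS214 tumors 13 to 16. Cytosolic ribosomal proteins were 5 with quantile normalization and 6 without SS tumors 18, 19 and 23. Candidate targets were 3 with the mean over probe sets, without SS tumors 18, 19 and 23, and without SS214 tumor 3. The ratio of *Tfrc* differed by −0.07, against −0.79 for *Gapdh*. Signs turned for *Dnm3os* (0.57) and *Dnm3* (0.06) with the mean over probe sets, *Hoxd9* (−0.60) and *Kdm5d* (−0.20) with *Uty*, *Pdlim5* (−0.18) with the *Actb* ratio and *Fbxo3* (−0.03) with the *Gapdh* ratio. The cause was not tested. For the lists named here and Wnt feedback genes, the other counts in the direction given in the report stayed within 1.5 times. Counts in the opposite direction could move by more. Of the tendon and fibroblast genes 4 fell without a covariate, and 7 fell with the *Actb* ratio, the lung list or the macrophage list. The *Gapdh* ratio nearly separates the groups, so that in the fit with it ratio and group can hardly be told apart.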

Other observations

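Some large changes have not been described above. *Zbtb20*, a zinc finger repressor, had a lowest, median and highest log2 intensity of 5.15, 7.08 and 8.29 in SS214 tumors, against 8.10, 9.14 and 9.80 in SS tumors (−2.05, SE 0.33, adjusted p = 3.5e-05 by limma). *Sez6*, a membrane protein of dendrites, had 5.94, 8.12 and 9.14 in SS214 tumors, against 8.00, 9.57 and 11.05 in SS tumors (−1.85, SE 0.37, adjusted p = 0.00031). Both overlapped between the groups. *Ttn*, the giant spring protein of striated muscle, had 4.50, 8.86 and 12.13 in SS214 tumors, against 9.27, 11.49 and 12.33 in SS tumors (−2.10, SE 0.72, adjusted p = 0.023). The muscle actin *Acta1* had medians of 12.95 in SS214 tumors and 12.83 in SS tumors (+0.09, SE 0.19, adjusted p = 0.74). *Gsg1l*, an auxiliary subunit of AMPA receptors, had 4.29, 4.90 and 5.66 in SS214 tumors, against 5.28, 6.45 and 7.07 in SS tumors (−1.58, SE 0.17, adjusted p = 6.9e-07). *Tanc2*, a scaffold of the postsynaptic density, had 5.33, 7.10 and 7.84 in SS214 tumors, against 8.11, 8.56 and 9.07 in SS tumors (−1.76, SE 0.23, adjusted p = 4.9e-06), without overlap. *Dsp*, desmoplakin of epithelial junctions, had 4.59, 5.96 and 7.83 in SS214 tumors, against 6.56, 7.62 and 9.41 in SS tumors (−1.49, SE 0.37, adjusted p = 0.0026). Of the 23 epithelial genes 4 fell (17.4%) and 1 rose (4.35%), against 17.6% and 22.3% of all genes tested. *Adipoq*, the adipokine adiponectin, had 7.52, 10.27 and 12.17 in SS214 tumors, against 5.57, 8.65 and 11.22 in SS tumors (+1.64, SE 0.60, adjusted p = 0.033), while 2 of 21 adipocyte genes rose. *Rbp7*, a retinol-binding protein, had 4.64, 5.60 and 7.71 in SS214 tumors, against 3.72, 4.43 and 4.86 in SS tumors (+1.49, SE 0.29, adjusted p = 0.00024), with 12 of the 13 SS214 tumors above every SS tumor. *Serpinb1a*, a protease inhibitor of myeloid cells, had 7.30, 8.45 and 10.25 in SS214 tumors, against 5.45, 7.08 and 8.32 in SS tumors (+1.62, SE 0.37, adjusted p = 0.0012). *Pdlim5*, a LIM protein of the muscle Z-disc, had 5.86, 8.46 and 10.04 in SS214 tumors, against 5.20, 6.36 and 8.54 in SS tumors (+1.72, SE 0.42, adjusted p = 0.0022), and differed by −0.18 with the *Actb* ratio as a covariate.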
